A study of Sus scrofa with 45 samples.

Results

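The genes followed here are 10 genes of fatty acid handling and of the adipocyte: SCD, LPL, PPARG, FABP4, PLIN1, CIDEC, CIDEA, ADIPOQ, LEP and RETN. They were found on a porcine Agilent microarray through the gene symbol, the RefSeq accession or the description of each probe, which gave 21 probes of 43603 and 10 genes of the 1946 that carry a symbol. Symbol or accession named 16 of these probes, and the description alone named the other 5. RNA of blood from male Clawn miniature pigs was measured on 45 arrays read in 1 colour. The pigs were 12 weeks old when feeding began, with 5 pigs per diet, and received a control diet, a diet high in fat and cholesterol (HFCD) or the same kind of diet with high sucrose as well (HFCSD). Weeks refer to the feeding period, so age moves with it and cannot be told apart from it.

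Whole blood after 10 weeks of feeding was measured on 4 control, 4 HFCD and 4 HFCSD arrays. At 19 weeks there were 4 control, 4 HFCD and 3 HFCSD arrays of whole blood, and at 27 weeks 4 control, 3 HFCD and 3 HFCSD arrays. White blood cells were measured at 27 weeks only, on 4 arrays of each diet. Whole blood RNA came from PAXgene tubes and white blood cell RNA from the LeukoLOCK kit, and the arrays of each sample type were scanned on separate days, so sample type, kit and scan day cannot be told apart. The replicate numbers are not stated to mark animals, and the same pig may have been measured at several times and in both sample types. If the arrays of a group are separate animals, some pigs must have been, given the number of pigs per diet. The number of arrays limits the precision of every value.

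Stored fat and circulating fat meet in the adipocyte. Lipoprotein lipase releases fatty acids from circulating triglyceride, stearoyl-CoA desaturase makes monounsaturated fatty acids, PPARG drives the adipocyte programme, and perilipin and CIDE proteins coat the lipid droplet. Adiponectin and leptin are hormones that adipocytes release into blood, whereas resistin is made by adipocytes in mice and largely by monocytes and macrophages in humans.

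A level is the log2 of the normalized intensity of a probe, and a probe counts as well above background where the scanner software marked its spot so. That mark was set for 35.4% to 53.3% of an array's spots (median 43.9%). Levels are compared between groups for the same probe; where the brightest probe of a summed list is named, it only says which probe carries the sum. Of the 21 probes, 5 were well above background on all 45 arrays, 4 on 11 to 35 arrays, 6 on 1 to 3 arrays and 6 on 0 arrays. Over all probes of the array, 27.7% were well above background on every array and 31.2% on 0 arrays.

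Most of these probes were not well above background in most blood samples, and a signal does not show which cells it came from. The 5 probes on every array belonged to 4 genes: SCD (A_72_P088586), RETN (A_72_P131846 and A_72_P177496), LEP (A_72_P165551) and ADIPOQ (A_72_P417919). LPL was the gene without a probe well above background on any array, with levels of 1.42 to 2.46 for its A_72_P232767. PPARG passed on 2 arrays and CIDEC on 1 array. FABP4, the fatty acid carrier of adipocytes and macrophages, passed on 11 arrays, 8 of the 33 of whole blood and 3 of the 12 of white blood cells.

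**Figure D1:**
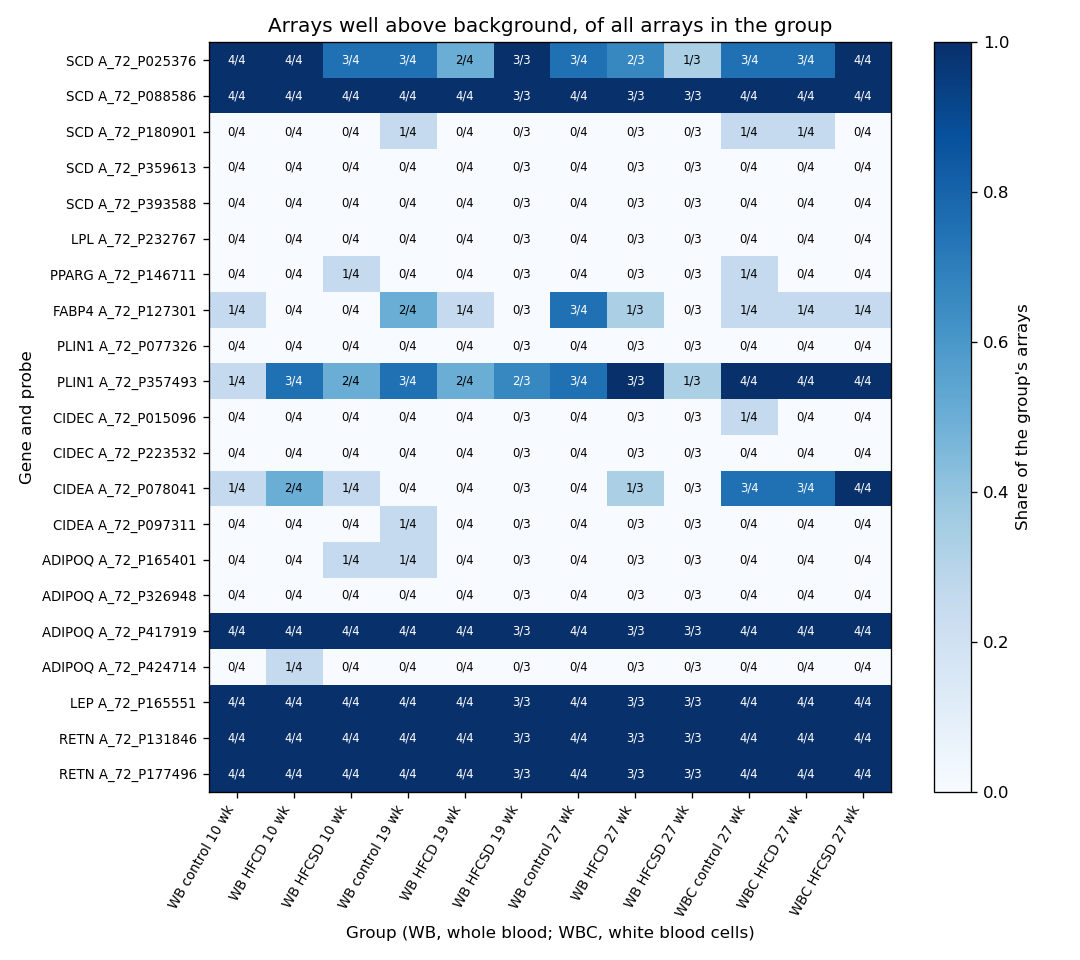
Number of arrays on which each of the 21 probes (vertical axis, gene and probe) was well above background, of the arrays in each of the 12 groups (horizontal axis; WB, whole blood; WBC, white blood cells; wk, weeks of feeding). Colour gives the share of the group's arrays; the 5 filled bands are the probes of SCD, ADIPOQ, LEP and RETN that passed on all 45 arrays.

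Probes of the same gene disagreed. For SCD, A_72_P088586 passed on 45 arrays and A_72_P025376 on 35, while A_72_P180901 passed on 3 and both A_72_P359613 and A_72_P393588 on 0. For ADIPOQ, A_72_P417919, named by its description alone, passed on 45 arrays with levels of 7.41 to 9.58, whereas the probes named by symbol passed on 2 arrays (A_72_P165401), 1 array (A_72_P424714) and 0 arrays (A_72_P326948). The PLIN1 probe named by its description alone, A_72_P357493, passed on 32 arrays, and the one annotated with the RefSeq accession, A_72_P077326, on 0 arrays. For CIDEA, A_72_P078041 passed on 15 arrays and A_72_P097311 on 1. The ADIPOQ probe on 45 arrays and the PLIN1 probe on 32 arrays are therefore reported by their probe names, since the other probes of these genes did not share their signal.

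The rare detections sat on few arrays. The 6 probes that passed on 1 to 3 arrays made 10 detections, of which 3 were on white blood cells control replicate 2 (CIDEC A_72_P015096 at 6.33, PPARG A_72_P146711 at 5.38 and SCD A_72_P180901 at 3.12). A further 3 were on whole blood control 19 weeks replicate 4, for SCD A_72_P180901, CIDEA A_72_P097311 and ADIPOQ A_72_P165401, at 3.18, 3.54 and 3.45. Whole blood HFCSD 10 weeks replicate 4 held 2 detections, PPARG at 3.39 and ADIPOQ A_72_P165401 at 3.54. White blood cells control replicate 2 also had the highest level of A_72_P088586 among the 45 arrays, 7.52. Spots well above background made up 50.9% of that array and 51.0% of the 19 weeks array, the highest in each of their groups.

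The sequences of 3 probes annotated with RefSeq mRNAs are shown because they span the range of detection, from 45 arrays through 15 to 0. All letters are in lower case, since no base of these probes lies in a run of 16 bases shared with another probe of the array.
RETN A_72_P177496: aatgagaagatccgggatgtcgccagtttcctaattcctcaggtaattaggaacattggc
CIDEA A_72_P078041: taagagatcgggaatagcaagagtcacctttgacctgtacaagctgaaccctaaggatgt
PLIN1 A_72_P077326: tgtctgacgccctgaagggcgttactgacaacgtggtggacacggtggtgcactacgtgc
Their G and C content was 45%, 45% and 60%. Of the 21 probes, 18 shared no run of 16 bases with any other probe on either the same gene or another. PLIN1 A_72_P357493 shared such runs with 26 other probes, and 20 of its bases lay in runs shared with at least 10 probes; LEP A_72_P165551 shared runs with 5 probes and SCD A_72_P025376 with 1. Over all 43603 probes, 18.4% shared a run with at least 1 other probe and 0.647% with at least 10.

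SCD, which desaturates stearic and palmitic acid, was read by A_72_P088586 on every array at 5.26 to 7.52. In whole blood of control pigs its level was 6.75, 5.58, 6.91 and 6.67 (10 weeks), 5.26, 6.23, 6.72 and 6.26 (19 weeks) and 6.04, 6.53, 6.04 and 6.08 (27 weeks). White blood cells had 6.33, 7.52, 6.63 and 5.93 in control pigs, 6.36, 6.58, 6.29 and 6.22 in HFCD pigs and 7.09, 6.89, 7.04 and 6.58 in HFCSD pigs. The HFCSD white blood cell arrays lay high and close together, inside the range of the control arrays. The group means ran from 6.90 (SD 0.23) in white blood cells of HFCSD pigs down to 5.83 (SD 0.31) in whole blood of HFCD pigs at 27 weeks. For each of the 7 probes ordered in this way, 0 of the 11 steps between neighbouring groups exceeded the larger SD of the pair; steps between 12 ordered means are small by their nature, so this says little about groups further apart. The second probe, A_72_P025376, followed it with r = 0.63 over the 45 arrays, a description without a test.

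RETN, resistin, was well above background with both probes on every array, and the probes followed each other with r = 0.99 over 45 arrays. For A_72_P131846 the levels at 10 weeks were 10.07, 9.66, 8.64 and 9.05 in control, 7.97, 9.05, 6.97 and 9.49 in HFCD and 8.51, 9.69, 8.12 and 9.17 in HFCSD whole blood. At 19 weeks they were 10.84, 9.0, 9.84 and 8.66 in control, 8.33, 8.68, 8.16 and 8.71 in HFCD and 9.54, 9.90 and 8.18 in HFCSD whole blood. The HFCD arrays at 19 weeks were all below the control mean of 9.59, but the highest of them, 8.71, lay above the lowest control array, 8.66. At 27 weeks the levels in whole blood were 10.24, 9.12, 10.03 and 8.57 in control, 9.47, 8.32 and 8.59 in HFCD and 9.14, 9.86 and 7.73 in HFCSD. In white blood cells they were 11.29, 9.32, 11.06 and 10.11 in control, 9.93, 8.90, 9.69 and 9.83 in HFCD and 10.14, 8.79, 11 and 9.57 in HFCSD. Control and diet arrays overlapped in each of these sets. White blood cells of control pigs had the highest mean, 10.44 (SD 0.91), and whole blood of HFCD pigs at 10 weeks the lowest, 8.37 (SD 1.13).

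LEP, leptin, was read by A_72_P165551 alone, which shared runs of 16 bases with 5 other probes. Whether its signal comes from leptin mRNA was not tested. The probe gave 5.44, 7.26, 6.74 and 6.77 in HFCD whole blood at 10 weeks, the group with the highest mean, 6.55 (SD 0.78). The control arrays of whole blood gave 4.90, 6.83, 6.83 and 6.80 (10 weeks), 6.76, 5.62, 6.73 and 6.84 (19 weeks) and 6.49, 5.55, 5.56 and 6.14 (27 weeks). Most of the control arrays at 10 and 19 weeks lay close to 6.8, with 1 array apart in each group. In white blood cells LEP was at 5.74, 4.80, 4.15 and 5.55 in control, 4.88, 4.17, 5.48 and 5.04 in HFCD and 4.34, 5.21, 5.11 and 4.41 in HFCSD pigs. The white blood cell groups were the last 3 of the 12 in order of level, with means of 5.06 (SD 0.73), 4.89 (SD 0.54) and 4.77 (SD 0.46).

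ADIPOQ A_72_P417919 in whole blood at 10 weeks had means of 9.15 (SD 0.17) in control, 9.01 (SD 0.23) in HFCD and 8.90 (SD 0.31) in HFCSD pigs. At 19 weeks they were 8.78 (SD 0.23), 8.16 (SD 0.52) and 8.05 (SD 0.59), the last of these being the lowest of the 12 groups. At 27 weeks they were 8.78 (SD 0.62), 8.71 (SD 0.24) and 8.79 (SD 0.29) in whole blood and 9.03 (SD 0.42), 8.68 (SD 0.38) and 8.70 (SD 0.31) in white blood cells.

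**Figure D2:**
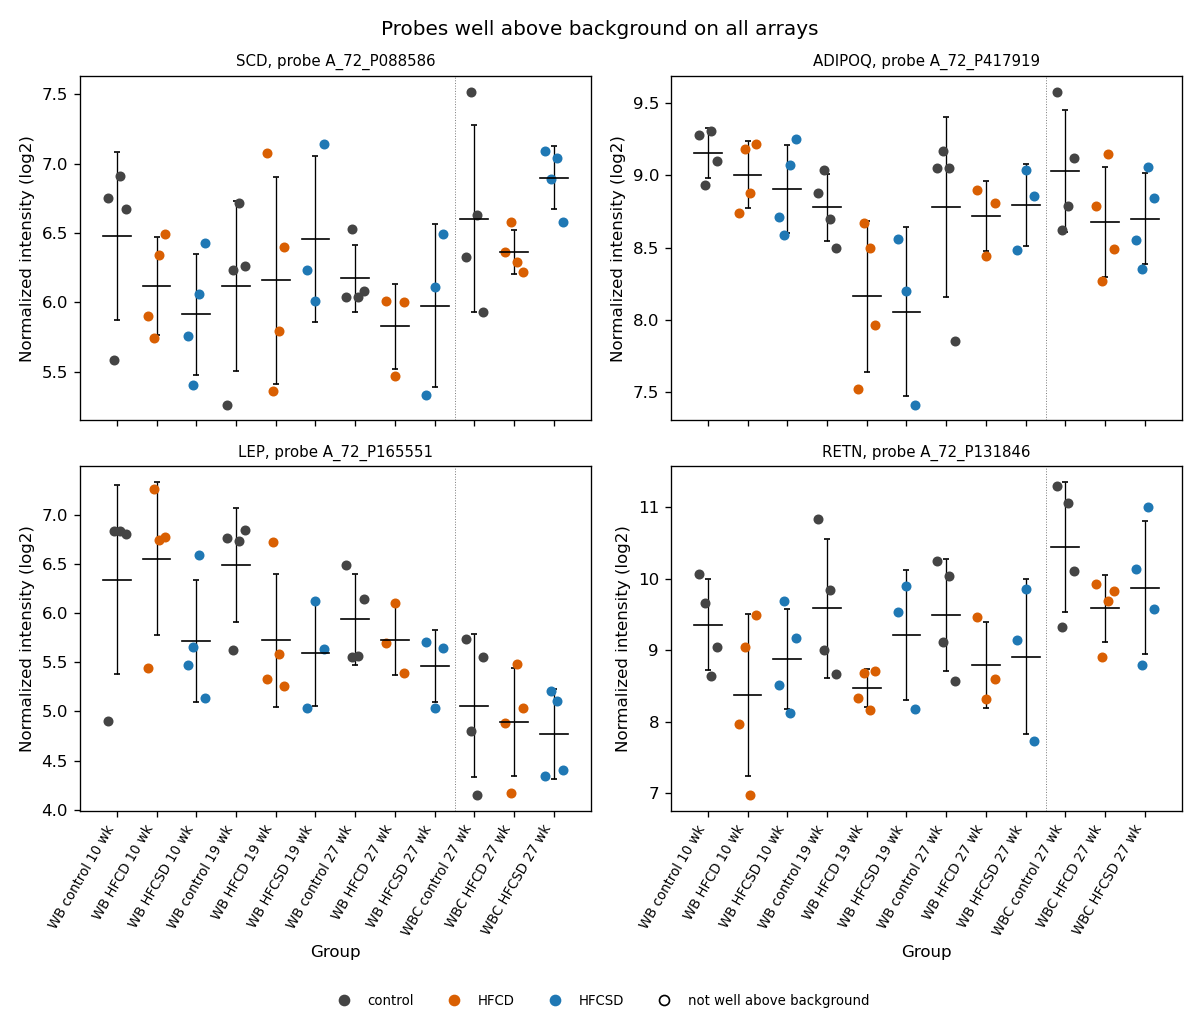
Normalized log2 intensity (vertical axes) of SCD A_72_P088586, ADIPOQ A_72_P417919, LEP A_72_P165551 and RETN A_72_P131846 on each array (points) of the 12 groups (horizontal axis), with group mean and SD (bars); all points are well above background. LEP lies lowest in the 3 white blood cell groups, and RETN is highest in white blood cells of control pigs, mean 10.44.

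Among the members that coat droplets, PLIN1 A_72_P357493 passed on 20 of 33 whole blood arrays and on 12 of 12 white blood cell arrays, with group means from 3.52 (SD 1.33) in control whole blood at 10 weeks to 5.19 (SD 0.41) in white blood cells of HFCSD pigs. CIDEA A_72_P078041, whose protein joins droplets and is best known from brown fat, passed on 5 of 33 whole blood arrays and 10 of 12 white blood cell arrays. In whole blood at 27 weeks CIDEA was at 2.34, 1.55, 1.91 and 1.60 in control, 3.18, 3.12 and 2.52 in HFCD and 2.88, 3.52 and 3.09 in HFCSD pigs, and only the first HFCD array was well above background. In white blood cells it was at 2.48, 3.62, 4.21 and 3.70 in control, 3.50, 3.09, 3.96 and 3.80 in HFCD and 3.84, 4.33, 3.88 and 4.10 in HFCSD pigs. The HFCSD white blood cell arrays lay above the HFCSD whole blood arrays of 27 weeks, of which 0 of 3 were well above background, but not above all HFCSD arrays of 10 weeks, which reached 4.41. CIDEC A_72_P223532 stayed between 1.35 and 2.96 and passed on 0 arrays.

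FABP4 A_72_P127301 spread widely inside groups. In control whole blood it was at 3.24, 4.79, 1.75 and 1.56 (10 weeks), 5.64, 3.74, 2.55 and 3.80 (19 weeks) and 3.79, 3.80, 3.77 and 4.40 (27 weeks). Of these arrays 1, 2 and 3 were well above background in turn. The probe passed on every array of 0 groups and on no array of 4 groups, so it entered no test.

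**Figure D3:**
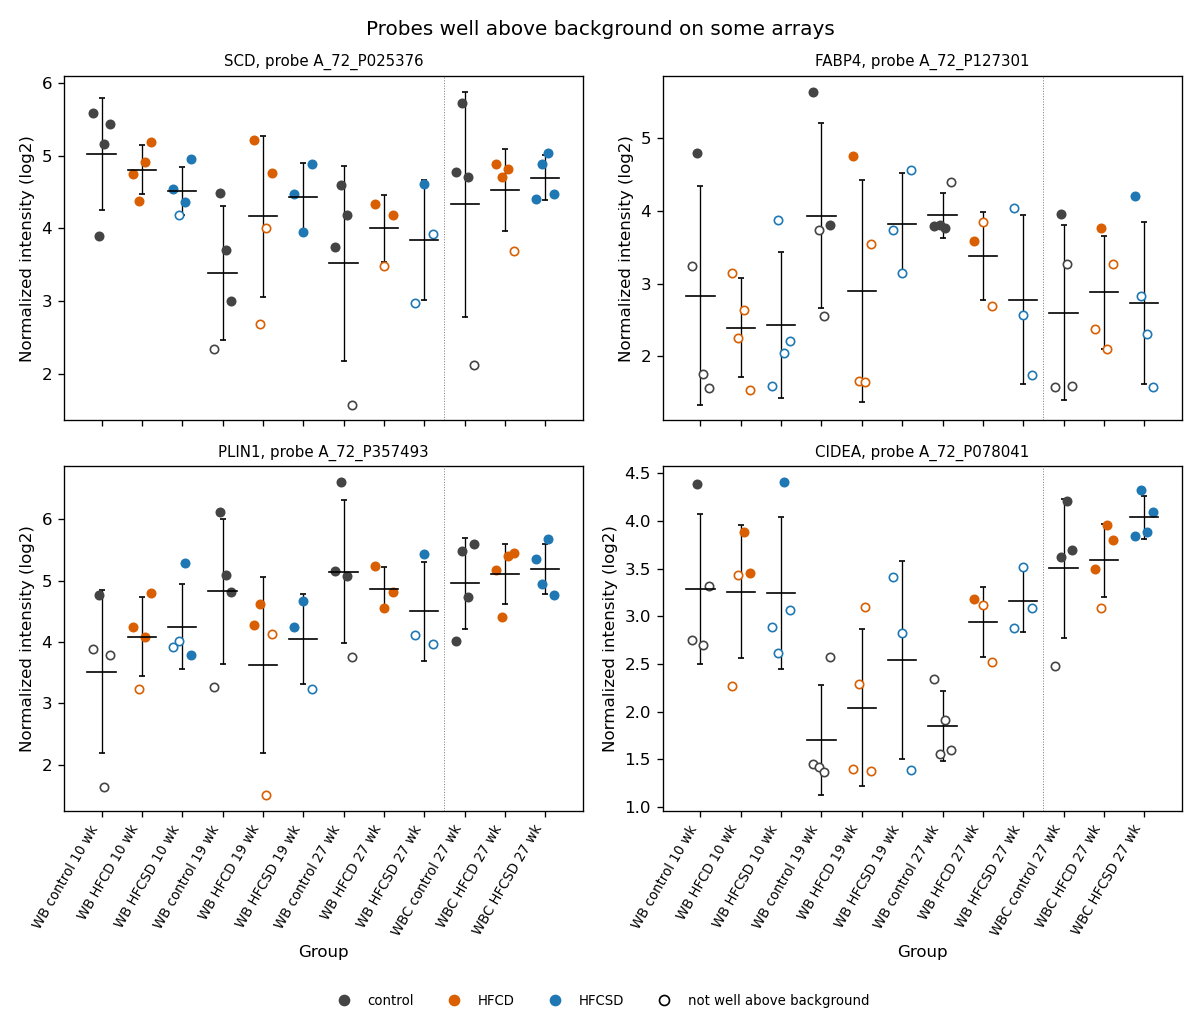
Normalized log2 intensity (vertical axes) of SCD A_72_P025376, FABP4 A_72_P127301, PLIN1 A_72_P357493 and CIDEA A_72_P078041 on each array (points) of the 12 groups (horizontal axis), with group mean and SD (bars); open points are not well above background. CIDEA is well above background on 10 of 12 white blood cell arrays and 5 of 33 whole blood arrays.

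The diets were compared within each sample type and feeding period, to ask whether a fat-rich diet alters blood expression of these genes. Testing needed signal well above background on all usable arrays of either group, so 5 to 8 of the 21 probes entered a comparison and the others have no test. Calls used limma with two-sided p-values adjusted by Benjamini-Hochberg over all probes tested, at 0.05. Beside them stand the shares at an unadjusted limma p under 0.05 and by the criterion of the methods, a fold above 2 or below 0.5 with their t-test at an unadjusted 0.05. Both diets were set against the same control arrays.

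RETN was lower in both diets than in control pigs in group mean in each of the 4 sets, but no difference passed adjustment, and the diets share the control arrays. For HFCSD the differences of A_72_P131846 were -0.48, -0.38, -0.58 and -0.57. For A_72_P131846 the means in control and HFCD pigs were 9.36 (SD 0.63) and 8.37 (SD 1.13) at 10 weeks, 9.59 (SD 0.97) and 8.47 (SD 0.27) at 19 weeks, 9.49 (SD 0.78) and 8.79 (SD 0.60) at 27 weeks and, in white blood cells, 10.44 (SD 0.91) and 9.59 (SD 0.47). The log2 differences for HFCD were -0.99, -1.12, -0.69 and -0.86, with SE of 0.53, 0.48, 0.55 and 0.50 and limma adjusted p of 0.537, 0.376, 0.995 and 0.997. The 19 weeks difference had the smallest unadjusted limma p of these probes in the 12 diet comparisons, 0.0406, with 4 of 4 HFCD arrays below the control mean. At 19 weeks control replicates 2 to 4 had a scan day of their own, apart from the diet arrays; with scan day as a term the difference was -2.37 (limma adjusted p = 0.795) and rested on 1 control array, replicate 1. Without that array, and without the term, it was -0.70 (limma adjusted p = 0.435). The second RETN probe gave -0.98, -1.21, -0.68 and -0.85 in the same 4 sets. The platelet marker probes were also lower in HFCD pigs in these sets, with medians of -0.85, -1.72, -1.12 and -1.11, where limma called 0 of 5 in each and 4, 1, 1 and 0 had an unadjusted p under 0.05. At 19 weeks HFCD replicates 1 and 4 carried this, with platelet sums of 10.97 and 11.55, while replicates 2 and 3, at 13.59 and 14.09, lay near the control arrays at 13.52 to 13.89; in white blood cells control replicate 1 (10.26) and HFCD replicate 2 (9.49) stood apart. The erythroid medians were -1.27, -0.19, 0.10 and -0.59 (0 called by limma, 2 of 2 unadjusted at 10 weeks) and the T cell medians 0.12, 0.65, -0.02 and 0.22 (0 called by limma, 4 of 9 unadjusted at 19 weeks). The neutrophil medians were -0.11, 0.05, 0.53 and 0.78 (0 called by limma, 1 of 2 unadjusted in white blood cells). The monocyte probes had medians of 0.41, -0.48, 0.45 and 0.22 in the 4 sets, with 0 called by limma and 0 unadjusted. In HFCSD pigs the platelet medians were -0.06, -0.48, -1.24 and -0.47, and the monocyte medians 0.07, -0.19, -0.02 and -0.07. Their erythroid medians were -0.31, 0.06, 0.82 and -0.02, the neutrophil medians 0.41, -0.06, 0.21 and 0.42, and the T cell medians -0.03, 0.65, 0.00 and 0.22. For each of these limma called 0 probes, with 0 to 4 at an unadjusted p under 0.05. The part of these cells in the RETN values was not tested. In bulk blood, fewer cells of a type and less RNA per cell cannot be told apart.

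Counts of members were 0 for HFCD against control in each set after adjustment with limma. At 10 weeks 0 of 6 probes passed in limma, 0 at an unadjusted p under 0.05 and 0 by the criterion of the methods, where 0.0281%, 10.0% and 1.73% of all 17767 probes tested did. At 19 weeks 0 of 5 probes passed in limma, 1 unadjusted (RETN A_72_P131846) and 0 by the criterion, beside 0.0181%, 12.5% and 3.30% of all probes. At 27 weeks the counts in whole blood were 0, 0 and 0 of 6 probes by limma, unadjusted limma and the criterion, beside 0.0165%, 5.54% and 1.53%. In white blood cells they were 0, 0 and 0 of 6 probes by the same rules, beside 0.0276%, 4.72% and 0.651%. The median log2 difference over the probes tested was -0.29, -0.76, -0.31 and -0.29 in these 4 sets, and 0.09, -0.04, -0.03 and 0.02 over all probes. Each member median rests on 5 or 6 probes and counts both RETN probes, which followed each other with r = 0.99. In whole blood at 27 weeks it also counts PLIN1 A_72_P357493, which entered through HFCD alone. No shared change is read from these medians. These member medians moved with the settings, to -0.48 at 10 weeks and in white blood cells with the share of bright spots as a covariate, and at 27 weeks to -0.56 with the replicate block and -0.14 with normexp. With no filter on dim probes they were -0.10, -0.27, -0.19 and -0.17.

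HFCSD against control gave no call at 19 weeks. SCD A_72_P088586 differed by 0.34 (SE 0.46, limma adjusted p = 0.769). SCD A_72_P025376, with means of 4.44 (SD 0.47) in HFCSD and 3.38 (SD 0.92) in control pigs, entered the test through HFCSD alone, since 3 of 4 control arrays were well above background, and no direction is read from it. LEP differed by -0.89 (SE 0.43, limma adjusted p = 0.435), with 3 of 3 HFCSD arrays below the control mean, and ADIPOQ A_72_P417919 by -0.73 (SE 0.35, limma adjusted p = 0.433), also with 3 of 3. The median over the 6 probes tested was -0.41, and -0.99 with scan day as a term, which leaves 1 control array on the day of the diet arrays. It counts SCD A_72_P025376 and both RETN probes, so no direction is read from it. SCD A_72_P088586 differed by -0.56 (SE 0.31, limma adjusted p = 1.00) at 10 weeks, where 4 of 4 HFCSD arrays lay below the control mean. At 10 weeks 0 of 6 probes passed in limma, 0 unadjusted and 0 by the criterion of the methods, beside 0.0123%, 1.73% and 0.136% of all probes. At 19 weeks the counts were 0, 0 and 0 of 6 by limma and the other rules, beside 0.0175%, 11.9% and 5.15%. In white blood cells they were 0, 0 and 0 of 8, beside 0.0366%, 11.4% and 1.72%.

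Whole blood of HFCSD pigs at 27 weeks is the diet set with the most calls over the array, though these depend on the method. There limma called 10.6% of all 17135 probes (1824), 32.3% passed unadjusted and 12.4% met the criterion, while the members counted 0, 0 and 0 of 5 probes. The methods' t-test after adjustment called 142 of all probes, and limma with the share of bright spots as a covariate 0. The member differences were -0.19 for SCD, -0.58 and -0.22 for the RETN probes, -0.47 for LEP and 0.01 for ADIPOQ A_72_P417919, a median of -0.22 against -0.21 over all probes. That median was 0.22 (all probes -0.09) with the share of bright spots as a covariate and -0.40 with the replicate block, so its direction is not stable. Their limma adjusted p ran from 0.294 to 0.981. CIDEA A_72_P078041 was not tested, because 0 of 4 control and 0 of 3 HFCSD arrays were well above background. With the weaker presence flag it entered the test and passed (limma adjusted p = 0.0310), a comparison of values that are all not well above background.

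HFCSD and HFCD pigs were compared directly to see what sucrose added. At 10 weeks 0 of 6 probes passed in limma, 0 unadjusted and 0 by the criterion of the methods, beside 0%, 4.95% and 0.603% of all probes. At 19 weeks it was 0, 0 and 0 of 6 by limma and the other rules, beside 0%, 1.56% and 0.221%. At 27 weeks it was 0, 0 and 0 of 6 in whole blood, beside 0.0111%, 12.6% and 1.82%, and 0, 0 and 0 of 8 in white blood cells, beside 0%, 2.17% and 0.117%. SCD A_72_P088586 in white blood cells had the smallest unadjusted limma p, 0.0855, with a difference of 0.54 (SE 0.29, adjusted p = 1.00), and 3 of 4 HFCSD arrays lay above each HFCD array.

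White blood cells were set against whole blood of the same diet at 27 weeks. The LEP probe A_72_P165551 was lower in white blood cells of control pigs, by 0.88 on the log2 scale (SE 0.35, limma adjusted p = 0.0483). There 4 of 4 white blood cell arrays lay below the whole blood mean of 5.94 (SD 0.46). SCD A_72_P088586 rose in HFCSD pigs, by 0.92 (SE 0.31, limma adjusted p = 0.0161), from 5.33, 6.11 and 6.49 in whole blood, and 4 of 4 white blood cell arrays lay above each whole blood array. CIDEA A_72_P078041 in HFCSD pigs had a mean of 4.03 (SD 0.23) in white blood cells and 3.16 (SD 0.33) in whole blood and passed the threshold (limma adjusted p = 0.0287). It entered the test through white blood cells alone, and 0 of 3 whole blood arrays were well above background, so no change is read from it.

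LEP differed by -0.84 (SE 0.38, limma adjusted p = 0.0762) in HFCD and by -0.70 (SE 0.38, limma adjusted p = 0.120) in HFCSD pigs. RETN A_72_P131846 differed by 0.96, 0.79 and 0.97 in control, HFCD and HFCSD pigs, with SE of 0.53, 0.58 and 0.58, and passed in 0 of the 3 diets (limma; 0 of 3 unadjusted and 0 of 3 by the criterion of the methods). ADIPOQ A_72_P417919 differed by 0.25, -0.04 and -0.09.

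These calls stand among many. In control pigs 1 of 6 member probes passed in limma, 1 unadjusted and 0 by the criterion of the methods, beside 45.3%, 52.3% and 30.6% of all probes. In HFCD pigs the counts were 0, 1 and 0 of 6 by limma, unadjusted limma and the criterion, beside 47.5%, 54.7% and 34%, and the probe with an unadjusted p under 0.05 was LEP. In HFCSD pigs they were 2, 2 and 0 of 8, beside 58.9%, 63.5% and 41.4%. The 2 called by limma were SCD A_72_P088586 and CIDEA A_72_P078041. Since CIDEA entered through white blood cells alone, only the SCD call is read as a difference. The median of all probes differed by 0.17, 0.19 and 0.42 in the 3 diets, and by 0.30, 0.38 and 0.50 with 75th percentile scaling. Relative to the quantile medians LEP differed by -1.04, -1.03 and -1.12, and SCD in HFCSD pigs by 0.50. The diet difference was not shown to depend on sample type: 0 of 6 (HFCD) and 0 of 5 (HFCSD) member probes passed a limma contrast of white blood cells minus whole blood, with 0 and 0 unadjusted, and the lowest adjusted p was 1.00 and 0.518. Over all probes that contrast called 0 of 16242 (HFCD) and 166 of 15861 (HFCSD).

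The LEP call held in 4 of 9 other limma settings, of which normexp gave -0.40, and not in the methods' t-test after adjustment. It was lost with the weaker presence flag, with no filter on dim probes, in a fit of the 2 groups alone, with the replicate number as a block (-0.88 in each) and with the array's share of bright spots as a covariate (-0.82), at limma adjusted p of 0.0579 to 0.0938. Leaving out whole blood control replicate 1 or 4 (-0.69 and -0.81) or white blood cells control replicate 2 or 3 (-0.79 and -0.57) also left 0 calls. SCD in HFCSD pigs differed by 0.56 with normexp and by 0.60 (limma adjusted p = 0.136) without whole blood HFCSD replicate 1. In the methods' t-test after adjustment SCD was not called, and the 1 member probe called was CIDEA A_72_P078041. With the bright-spot covariate the HFCSD calls also fell to 0, with SCD at 0.34 and adjusted p of 0.526 for SCD and 0.517 for CIDEA, and without whole blood HFCSD replicate 1 they fell to 0 as well.

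Blood cell markers are given beside these values. The summed intensity of the monocyte probes, 9 probes of 4 of the 6 listed genes with FCGR3A the brightest, had a log2 mean of 14.89 (SD 0.23) in whole blood and 15.65 (SD 0.62) in white blood cells of control pigs, and 14.48 (SD 0.38) and 15.36 (SD 0.47) in HFCSD pigs. The T cell probes, 11 probes of 6 of 7 genes with CD3D the brightest, had 12.86 (SD 0.13) and 13.36 (SD 0.37), and 12.63 (SD 0.27) and 13.59 (SD 0.22). limma called 3 of 9 monocyte probes and 8 of 10 T cell probes higher in control and 3 of 8 and 8 of 10 in HFCSD pigs, with 0 lower, beside 45.3% and 58.9% of all probes called. The neutrophil sum, 2 probes of 2 of 9 genes with MMP9 the brightest, was 13.38 (SD 0.68) and 13.60 (SD 0.50) in control and 13.26 (SD 0.11) and 13.81 (SD 0.39) in HFCSD pigs. PTPRC had 0 probes with that symbol.

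Erythroid and platelet levels varied between white blood cell arrays. The erythroid sum, 3 probes of 2 of 10 genes with HBE1 the brightest, was 8.74, 14.19, 14.79 and 14.78 in control, 13.76, 8.83, 13.03 and 14.43 in HFCD and 14.37, 13.60, 11.74 and 12.61 in HFCSD white blood cells, against a whole blood mean of 14.44 (SD 0.68) in control pigs. The platelet sum, 5 probes of 4 of 8 genes with ITGA2B the brightest, was 10.26, 15.71, 15.75 and 15.94 in control and 14.68, 9.49, 13.54 and 15.27 in HFCD white blood cells, and 15.48, 14.93, 12.84 and 12.26 in HFCSD white blood cells. The erythroid median differed between sample types by -1.38 in control, -2.07 in HFCD and -2.22 in HFCSD pigs. Each rested on 2 probes, with 0 called by limma and 0, 0 and 1 unadjusted. Control replicate 1 and HFCD replicate 2 stood apart with low sums of both lists. Without control replicate 1 LEP differed by -1.10 (limma adjusted p = 0.0199). The stroma and vessel wall list, 12 probes of 6 of 8 genes with PECAM1 the brightest, had 12.13 (SD 0.19) in whole blood and 13.14 (SD 1.74) in white blood cells of control pigs, while COL1A1 and COL1A2 passed on 0 arrays. The adipocyte sum, 12 probes of 6 of 6 genes that are all members, with ADIPOQ A_72_P417919 the brightest, lay at 9.24 (SD 0.46) and 9.38 (SD 0.29), and 3 to 6 of the 12 probes were well above background on a control white blood cell array. The part of any cell type in the member values was not tested.

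Whole blood at 27 weeks was compared with 10 weeks in each diet, since the study followed blood over feeding. The arrays of 10 weeks and of 27 weeks were scanned on different days and lay on different slides, so feeding period cannot be told apart from these either. SCD A_72_P025376 in control pigs was at 5.59, 3.90, 5.16 and 5.43 at 10 weeks and 3.74, 4.59, 4.18 and 1.58 at 27 weeks, where the last array was not well above background. The 27 weeks arrays were all below the 10 weeks mean and the groups overlapped. The probe entered the test through 10 weeks alone, and no direction is read from it. The difference of -1.50 (SE 0.55, limma adjusted p = 0.0533) did not pass, and that of the other tested SCD probe was -0.30 (SE 0.36, limma adjusted p = 0.569). Without the 27 weeks array at 1.58 it was -0.85 (limma adjusted p = 0.241).

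In control pigs 0 of 6 probes passed in limma from 10 to 27 weeks, 1 unadjusted and 0 by the criterion of the methods, beside 20.7%, 35.5% and 14.8% of all probes. In HFCD pigs the counts were 0, 0 and 0 of 7 by limma and the other rules, beside 5.59%, 20.5% and 8.25%. In HFCSD pigs they were 0, 0 and 0 of 5, beside 10.4%, 26.8% and 11.8%. FABP4 in HFCD pigs, with 1 of 3 arrays above background at 27 weeks and 0 of 4 at 10 weeks, had no test. LEP differed by -0.41, -0.83 and -0.25 in the 3 diets. The change of a diet difference from 10 to 27 weeks passed for 0 of 5 and 0 of 5 member probes in limma, with 0 and 0 unadjusted and lowest adjusted p of 0.940 and 0.705.

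Other genes of fatty acid handling were taken from a list of 78 genes, of which 47 were on the array with 83 probes. In 11 of the 12 diet comparisons limma called 0 of the 45 to 62 probes tested, beside 0% to 0.0366% of all probes. At an unadjusted limma p under 0.05 there were 0 to 12, beside 1.56% to 12.6% of all probes. In whole blood of HFCSD against control pigs at 27 weeks limma called 10 higher and 3 lower of 51 probes tested, with 27 unadjusted. Of all 17135 probes it called 1161 higher and 663 lower there (10.6%), with 32.3% unadjusted. The median difference of the list probes was 0.09 and that of all probes -0.21.

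The called probes had many roles. ACSL1, which activates fatty acids, rose by 3.04 (SE 0.44, limma adjusted p = 0.0114), from 8.14 (SD 0.19) to 11.18 (SD 0.40), and SREBF1, a regulator of lipid synthesis, by 2.86 (SE 0.53, limma adjusted p = 0.0195) with A_72_P326973, while its other probe, A_72_P223967, at 4.00 (SE 1.26, limma adjusted p = 0.0644), did not pass. PNPLA2, the lipase that starts the breakdown of droplet fat, rose with 3 of 4 probes, by 1.77, 1.62 and 2.85. The adiponectin receptor ADIPOR1 rose with both probes, by 2.26 and 1.94, the droplet coat PLIN2 by 1.44 and the mitochondrial carrier UCP2 by 1.34. In each of these the 3 HFCSD arrays lay above the 4 control arrays. The probes were picked by their call in the same comparison, so this adds no support to the calls. The share of all probes separated in this way was not counted. The fatty acid transporter CD36 fell by 1.57 with A_72_P303204, while its other probes, at -1.24 and -1.05, did not pass. UCP3 fell by 1.56, and ACSL4 by 1.06 with A_72_P283184, where its other 4 tested probes, at -0.14 to -1.0, did not pass.

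Roles without a called probe were represented by CEBPA, CEBPB and NR1H3 among the regulators, at 0.04, -1.0 and 0.58, and by AGPAT1 in triglyceride synthesis, at 0.17, while DGAT1 was not tested there. Spots well above background made up 38.8% to 39.7% of these HFCSD arrays and 38.9% to 50.2% of the control arrays, the erythroid sum was 15.23 (SD 0.38) and 14.44 (SD 0.68), and the platelet sum 13.28 (SD 1.33) and 14.19 (SD 0.16), with a median of -1.24 over 5 platelet probes (0 called by limma, 2 unadjusted); their part in the calls was not tested apart from the fit with that share as a covariate, in which limma called 0 of 51 list probes, with 19 unadjusted, and 0 of all probes. Leaving out control replicate 1, 2 or 3 left 1, 4 (3 higher and 1 lower) and 2 calls in the list, and leaving out HFCSD replicate 1 or 2 left 1 and 1. Between sample types limma called 27 higher and 3 lower of 62 list probes in control, 22 and 9 of 61 in HFCD and 22 and 13 of 64 in HFCSD pigs, beside 45.3%, 47.5% and 58.9% of all probes, and 4638 higher and 3981 lower, 4960 and 4270, and 7329 and 4258 of them. The list medians were 0.70, 0.49 and 0.53, and those of all probes 0.17, 0.19 and 0.42. From 10 to 27 weeks it called 7 higher and 15 lower of 54, 0 and 6 of 61, and 1 and 3 of 58, beside 20.7%, 5.59% and 10.4% of all probes. Over all probes these calls were 2082 higher and 1461 lower, 318 and 737, and 603 and 1106. The list medians from 10 to 27 weeks were -0.29, -0.20 and -0.00, and those of all probes 0.08, 0.01 and -0.05.

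The named genes whose pattern over the 45 arrays was most like a member's were looked up among 1703 probes on at least 30 arrays. RETN A_72_P131846 was most like TNNI2 (r = 0.73), HP (r = 0.71) and VNN1 (r = 0.70), and the second RETN probe like TNNI2 (r = 0.71), ABHD5 (r = 0.69) and HP (r = 0.69). ADIPOQ A_72_P417919 was most like IFNAR1 (r = 0.84), CD14 (r = 0.80) and NCF1 (r = 0.80), and PLIN1 A_72_P357493 like MUC19 (r = 0.67), PIK3R5 (r = 0.59) and CD163 (r = 0.58). LEP was most like IGFBP1 (r = 0.81), CXCL16 (r = 0.79) and NLN (r = 0.78). SCD A_72_P088586 was most like MUT (r = 0.71), SUMO2 (r = 0.70) and SLC5A4 (r = 0.70), and A_72_P025376 like MDH1 (r = 0.74), PNAS-5 (r = 0.72) and RAE1 (r = 0.71). The arrays share scan days, kits and diets, and r is given as a description. Between probes of different members r lay between -0.40 and 0.37.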

How the data were processed

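Samples were grouped by the deposited labels into 12 groups of sample type, diet and feeding period, and no array was left out. The authors deposited spot intensities of 45 Agilent arrays read in 1 colour, from which Feature Extraction had subtracted the background; the files name version 10.5.1.1 and the submitters' processing notes 9.5.3.1. The authors also deposited a series table of linear intensities after quantile normalization, with array medians of 0.0996 to 0.101, which served as an alternative only, after log2. Here the processed intensities of 43803 probe spots were turned into log2 values and then quantile normalized across arrays, as the methods name. The 1 to 31 spots per array marked as outliers were left out, spots of a probe were averaged, and 0 spots were saturated.

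Symbols came from the array annotation and, for 2032 probes, from RefSeq accessions through a table of the Sscrofa11.1 assembly; 2974 probes of 1946 genes were named. Comparisons of 3 diet groups, of the 6 groups of 27 weeks or of the 9 whole blood groups were fitted with limma (lmFit, eBayes), with at least 2 usable arrays per group, and the fits were tested on simulated data. The text names all 10 members, and from a list of other genes those with a call in a diet comparison, and otherwise up to 3 per role; a few results of the lists are not reported here. Marker lists and likeness are descriptions. The members and lists were chosen with earlier results of these data known. P-values take the arrays of a group as separate animals, which the labels do not state.

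Alternatives were 75th percentile scaling, normexp with an offset of 50, the deposited table, the weaker presence flag, no filter on dim probes, only the 2 groups compared, the replicate number as a block, slide as a random block (16 slides), scan day as a term (5 days), each array's share of bright spots as a covariate, the methods' t-test and each array left out in turn. The tools were R 4.3.3, limma 3.58.1, statmod 1.5.0, Python 3.11.15, numpy 2.4.6, pandas 2.3.3 and matplotlib 3.10.9.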

Additional observations from a re-analysis of the deposited data

Results flagged for a closer look

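In each group of 4 arrays, the gap between the most distant array and its nearest neighbour was divided by the range of the group, for probes well above background there. Of 52 such groups 4 exceeded the tabled limit for 4 values, which chance alone passes in about 1 in 20. SCD A_72_P088586 in whole blood control 27 weeks had a ratio of 0.933, with replicate 2 at 6.53 and the others at 6.04 to 6.08. ADIPOQ A_72_P417919 in the same group had 0.910, with replicate 4 at 7.85 and the others at 9.05 to 9.17. LEP in whole blood control 10 weeks had 0.985, with replicate 1 at 4.90 and the others at 6.80 to 6.83, and in whole blood control 19 weeks 0.911, with replicate 2 at 5.62 and the others at 6.73 to 6.84. All 4 arrays are control arrays of whole blood. Whole blood of HFCSD pigs at 19 weeks and of both diets at 27 weeks had 3 arrays per group, so these groups could not be flagged.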

How the results depend on the processing

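Counts of member probes past the limma threshold were the same, or within 1.5 times, in 168 of 183 combinations of comparison and setting, higher in 7 and lower in 8. With each array left out in turn they were so in 119 of 134, higher in 7 and lower in 8. In every diet comparison the reported count is 0, which most settings would keep, so this agreement says little. An equal count can also hold a different probe. For the diets 1 of 123 settings and 0 of 90 left-out arrays gave a count above 0: HFCSD against control in whole blood at 27 weeks had 1 (CIDEA) with the weaker flag. White blood cells against whole blood in control pigs, 1 probe as reported, had 2 with no filter on dim probes (CIDEA and ADIPOQ A_72_P424714) and 1 with the weaker flag (CIDEA), neither of them LEP, the probe reported. It had 0 with only the 2 groups, with the covariate and with the methods' t-test, 0 at their threshold and 0 after Benjamini-Hochberg. It had 0 to 2 with an array left out: 2 without white blood cells control replicate 1 (LEP and CIDEA) or 4 (LEP and SCD A_72_P025376), and 0 without whole blood control replicate 1 or 4 or white blood cells control replicate 2 or 3. That CIDEA probe and SCD A_72_P025376 entered through white blood cells alone, so no change is read from them. In HFCD pigs, 0 as reported, it had 1 with normexp and 0 to 1 with an array left out, 1 without white blood cells replicate 3. In HFCSD pigs, 2 as reported (SCD and CIDEA), it had 1 with 75th percentile scaling (SCD), 1 with normexp (SCD) and 0 with the covariate. With the methods' t-test it had 0 at their threshold and 1 after Benjamini-Hochberg (CIDEA, not SCD). The CIDEA probe entered through white blood cells alone, so no change is read from it. With an array left out it had 0 to 2: 0 without whole blood replicate 1, and 1 without whole blood replicate 3 or white blood cells replicate 2 or 4. From 10 to 27 weeks in control pigs, 0 as reported, 75th percentile scaling, normexp and the covariate gave 1 each (SCD A_72_P025376, at -1.54, -0.41 and -1.75, a probe that entered through 10 weeks alone, so no change is read from these) and the weaker flag 1 (CIDEA). Left-out arrays gave 0 to 1: 1 without 10 weeks replicate 2 or 27 weeks replicate 2 or 3 (SCD), and 1 without 27 weeks replicate 4 (PLIN1, 2.09). That PLIN1 probe, A_72_P357493, was well above background on 1 of 4 arrays of 10 weeks. It entered through 27 weeks alone, so no change is read from it. The cause was not tested.

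The replicate numbers did not meet the rule set for pairing: in 0 of 18 comparisons was r over 0.1 for every pair of equal number (-0.54 to 0.70 over 63 pairs, 17 of them best both ways). White blood cells and whole blood of control pigs came close, with 3 of 4 pairs over 0.1, the other at 0.08, and 3 best both ways. So did whole blood of HFCSD pigs from 10 to 27 weeks, with 2 of 3 pairs over 0.1, the lowest at 0.09, and 1 best both ways. If the arrays of a group are separate animals, the number of pigs per diet requires that such groups share animals. The numbers do not show which arrays these are, and the main tests leave the sharing out. With the replicate number as a block, white blood cells against whole blood had 0 in control and 3 in HFCSD pigs (SCD A_72_P088586, SCD A_72_P025376 and CIDEA). SCD A_72_P025376 and CIDEA entered through white blood cells alone, so no change is read from them. Scan day as a term could be estimated only at 19 weeks. Signal over background limits the dim probes, which have no test.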
